A study of Mus musculus with 4 samples.

Results

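The endothelin system consists of 3 peptide ligands (Edn1, Edn2 and Edn3), 2 receptors (Ednra and Ednrb) and 2 converting enzymes (Ece1 and Ece2). These 7 genes were taken by name from a table of 55228 genes, and all 7 were present in it. The set was chosen by the known family of genes and by the measured level of Edn2, which was already known to be far higher in Trim28 knockout (Trim28 KO) than in wild-type (WT) libraries, so the levels and fold changes of all 7 genes between the genotypes are given as a description, without p-values. Total RNA came from rib cartilage cells, taken from mouse embryos of the C57BL/6 strain at stage E17.5. There were 2 libraries from Trim28 KO embryos and 2 from WT embryos. The labels give neither the allele, nor any Cre line, nor the number of embryos behind a library, so the spread between libraries of 1 genotype may be technical. TRIM28 is a corepressor that KRAB zinc finger proteins bring to DNA.

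Endothelins are short vasoactive peptides. Each is cut from a longer precursor, first by furin-type proteases to an inactive intermediate called big endothelin and then by an endothelin-converting enzyme to the active peptide. The peptides act through G protein-coupled receptors: EDNRA prefers endothelin-1 and endothelin-2, whereas EDNRB binds all the ligands with similar strength and also clears them. In mouse embryos, Edn1 and Ednra pattern the cartilages of the lower jaw and the great vessels, and Edn3 and Ednrb are needed for pigment cells and enteric neurons. Edn2, whose mouse peptide was first called vasoactive intestinal contractor, is best known from the gut, lung and ovary.

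The active peptides are close relatives, and the coding stretches show how the ligand genes can be told apart in sequencing reads. Each stretch of 63 bases (21 codons) lies in exon 2 of 5 of its transcript. It was located in GENCODE M21 transcripts as the only run of codons with the endothelin spacing of cysteines behind a pair of basic residues. It lies at chr13:42303649-42303711 for Edn1, chr4:120161951-120162013 for Edn2 and chr2:174761749-174761811 for Edn3, all on the plus strand of GRCm38. Capitals mark bases that differ from Edn1.
Edn1: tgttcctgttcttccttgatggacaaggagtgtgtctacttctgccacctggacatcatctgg
Edn2: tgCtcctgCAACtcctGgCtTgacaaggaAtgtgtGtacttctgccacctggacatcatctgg
Edn3: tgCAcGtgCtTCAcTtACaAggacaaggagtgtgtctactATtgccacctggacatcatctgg
Edn2 differed from Edn1 at 10 of the 63 bases and Edn3 at 13. The end of the stretch, which codes for the conserved tail of the peptide, was the same in all 3 genes.

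Edn2 lies at chr4:120161206-120167360 on the plus strand of GRCm38, and no other annotated gene shares its exons. The promoter window is shown because Edn2 had the largest difference between the genotypes among the endothelin genes. It runs from 250 bases before to 50 bases after the RefSeq start, at chr4:120160956-120161255 of GRCm38.p6 on the plus strand. Capitals mark CG pairs, the sites of DNA methylation.
Edn2 promoter: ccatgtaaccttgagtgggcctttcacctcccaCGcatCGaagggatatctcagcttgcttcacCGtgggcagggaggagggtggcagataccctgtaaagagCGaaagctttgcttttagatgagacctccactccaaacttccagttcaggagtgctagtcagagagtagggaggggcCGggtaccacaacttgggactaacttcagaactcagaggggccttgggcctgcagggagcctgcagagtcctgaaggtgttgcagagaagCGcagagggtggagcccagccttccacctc
This window held 6 CG pairs, where the median of 32851 RefSeq promoter windows of the same length was 7. The other endothelin genes had 8 (Ednra), 10 (Edn3), 11 (Edn1), 15 (Ednrb), 23 (Ece2) and, over 4 windows, 5 to 28 (Ece1) CG pairs. The letters ACGTG, the core of the site that hypoxia-inducible factors bind, were searched on both strands. They were absent from the Edn2 window, and among the other members they occurred in the Edn1 and Ece2 windows and in 1 of the 4 Ece1 windows, while 19.6% of all windows held them.

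Edn2 was the member that stood furthest apart between the genotypes. It had 466 and 362 reads in the Trim28 KO libraries, against 27 and 25 reads in the WT libraries. In CPM (reads per gene relative to the library's total, with factors from the trimmed mean of M-values, TMM), these were 24.0 and 18.2 in Trim28 KO and 1.43 and 1.26 in WT. Both Trim28 KO libraries lay far above both WT libraries. The means were 21.1 ± 4.1 CPM in Trim28 KO and 1.35 ± 0.12 CPM in WT (SD, n = 2 each), a ratio of 15.6, and the fitted log2 fold change of Trim28 KO over WT was 3.96 ± 0.27 (SE). Of 16639 genes tested, 33 had a higher fitted log2 fold change than Edn2.

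Edn1, the main endothelin of blood vessels, had 26 and 28 reads in Trim28 KO and 34 and 34 reads in WT. Its levels were 1.34 and 1.41 CPM in Trim28 KO, against 1.81 and 1.72 CPM in WT, so the genotypes did not overlap, but the log2 fold change of -0.36 was smaller than its SE of 0.40. Edn3, the ligand of the pigment cell and enteric neuron lineages, had 7 and 10 reads in Trim28 KO and 22 and 23 reads in WT. This is 0.36 and 0.50 CPM in Trim28 KO and 1.17 and 1.16 CPM in WT, with both Trim28 KO libraries below both WT libraries (log2 fold change of -1.42 ± 0.51, SE). A count of 3, the limit taken for detection, equals 0.151 to 0.159 CPM, so Edn3 in Trim28 KO stood only a few reads above it. Edn3 passed the filter on low counts (about 0.508 CPM in at least 2 libraries) through the WT libraries alone, so it had to be lower in Trim28 KO if it differed at all. The other 6 members passed it in all 4 libraries. Edn1 lies at chr13:42301476-42307990 and Edn3 at chr2:174760619-174784042, both on the plus strand.

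**Figure D1:**
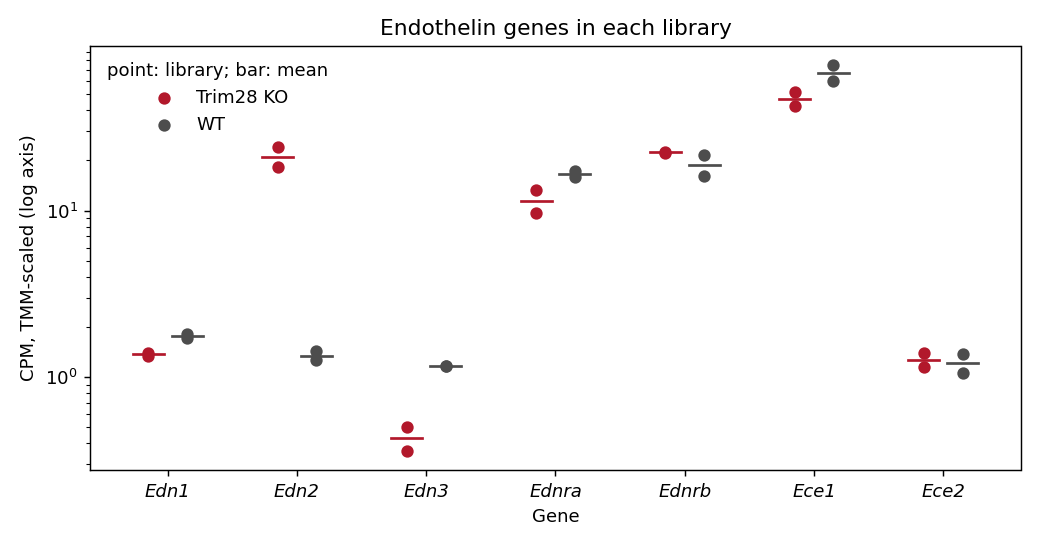
Level of the 7 endothelin genes in each library, in TMM-scaled CPM on a log axis (points are libraries, bars are means of 2). Edn2 stands at 24.0 and 18.2 CPM in Trim28 KO and at 1.43 and 1.26 CPM in WT, and Edn3 at 0.36 and 0.50 CPM in Trim28 KO and 1.17 and 1.16 CPM in WT.

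The balance among the ligands was compared per length, as CPM per kilobase of exon. The summed level of the 3 ligand mRNAs was 17.1 and 13.2 CPM per kilobase in the Trim28 KO libraries, against 2.11 and 1.95 CPM per kilobase in the WT libraries. Edn2 made up 95.8% and 94.1% of this sum in Trim28 KO and 46.5% and 44.3% in WT. Edn1 made up 3.65% and 4.97% in Trim28 KO and 40.0% and 41.2% in WT. Edn3 made up 0.51% and 0.92% in Trim28 KO and 13.5% and 14.5% in WT. In WT, therefore, Edn2 and Edn1 mRNA were at similar levels per length (0.922 ± 0.083 and 0.823 ± 0.029 CPM per kilobase, SD, n = 2), a difference smaller than the sum of their SDs. In the Trim28 KO libraries the Edn2 level was 26.2 and 18.9 times the Edn1 level.

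**Figure D2:**
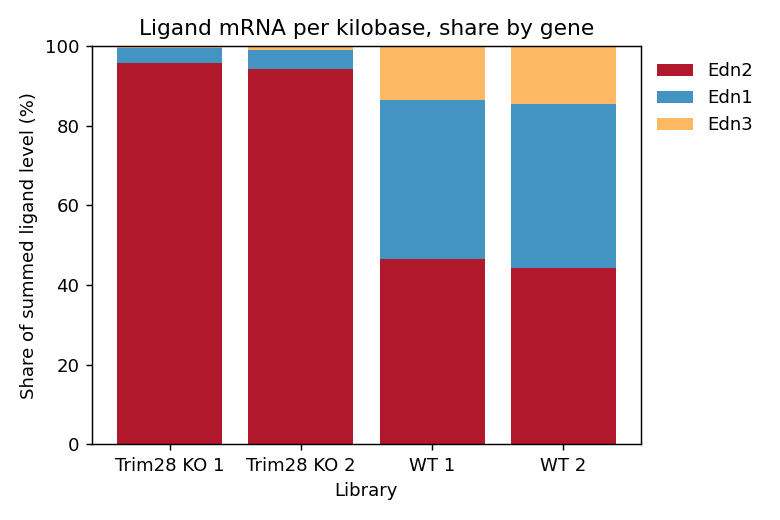
Share of each ligand gene in the summed ligand mRNA level per kilobase (percent) in each library. Edn2 fills 95.8% and 94.1% of the Trim28 KO bars and 46.5% and 44.3% of the WT bars.

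Neither receptor passed the threshold of an adjusted p under 0.05, which 17.4% of the 16639 genes tested passed. Ednra, which signals through Gq proteins to release calcium, was at 9.63 and 13.3 CPM in Trim28 KO and at 15.8 and 17.3 CPM in WT. Both Trim28 KO libraries were below both WT libraries, with a log2 fold change of -0.53 ± 0.21 (SE). Ednrb was at 22.6 and 22.2 CPM in Trim28 KO and at 16.2 and 21.6 CPM in WT. The higher WT library came close to the Trim28 KO values, and the log2 fold change of 0.25 ± 0.20 (SE) moved to 0.08 without WT 1 and to 0.49 without WT 2. That of Ednra moved to -0.30 without Trim28 KO 1 and to -0.78 without Trim28 KO 2. Per length, Ednra made up 24.9% and 31.9% of the summed receptor mRNA in Trim28 KO and 43.2% and 38.5% in WT, and these ranges did not overlap. The summed receptor level was 7.06 and 7.64 CPM per kilobase in Trim28 KO, between the 6.69 and 8.22 CPM per kilobase of the WT libraries. Ednra lies at chr8:77663031-77724464 and Ednrb at chr14:103814625-103844402, both on the minus strand.

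Of the converting enzymes, Ece1, the main activator of big endothelin-1, was the more abundant per length in every library, at 7.96 and 9.72 CPM per kilobase in Trim28 KO and 14.1 and 11.3 CPM per kilobase in WT. Without the length scaling it was at 42.2 and 51.5 CPM in Trim28 KO and at 74.6 and 59.9 CPM in WT. The genotypes did not overlap, and the log2 fold change was -0.52 ± 0.19 (SE). Ece1 did not pass the threshold with all 4 libraries and did pass it, as lower in Trim28 KO, without WT 2 (-0.65) or with a stricter filter on low counts (-0.55). Ece2, a related enzyme that works at acidic pH and is known mainly from nervous tissue, had 27 and 23 reads in Trim28 KO and 26 and 21 reads in WT. This is 1.39 and 1.15 CPM in Trim28 KO and 1.38 and 1.06 CPM in WT, and the genotypes overlapped (log2 fold change of 0.06 ± 0.43, SE). Its sign turned without Trim28 KO 1 (-0.07) or WT 2 (-0.09). The predicted gene Gm49333 shares 2937 of the 5110 exon bases of Ece2 on the same strand. Reads in shared bases were not counted, so the Ece2 level is understated. Ece1 lies at chr4:137862237-137965229 and Ece2 at chr16:20629828-20646485, both on the plus strand.

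In all, 1 of the 7 members (Edn2) passed the threshold as higher in Trim28 KO and none as lower, where 8.64% of all genes tested passed as higher and 8.77% as lower. The genotypes did not overlap in 6 of the 7 members, where they did not overlap in 58.0% of all genes tested. Since the set was proposed from this comparison, nothing is read from these counts. Without any 1 library, the log2 fold change of Edn2 lay between 3.75 and 4.15 and that of Edn3 between -1.67 and -1.20, whereas Edn1 stayed between -0.39 and -0.30.

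**Figure D3:**
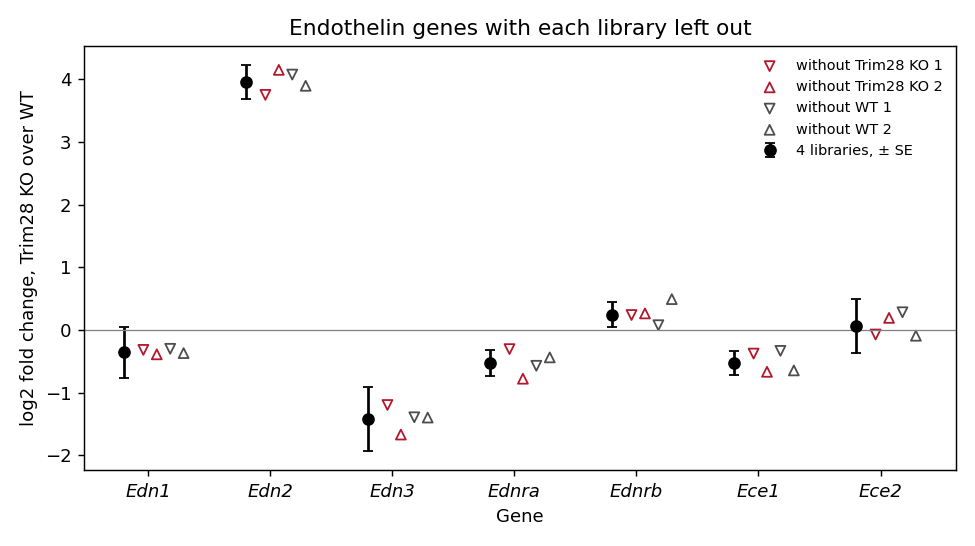
Fitted log2 fold change of Trim28 KO over WT for the 7 endothelin genes with all 4 libraries (black, ± SE) and with each library left out (open triangles). Edn2 stays between 3.75 and 4.15, and the values of Ece2 lie on both sides of 0.

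Ranked by level per length, the order differed between the genotypes in the places of Edn2, Edn3 and Ece2. Ece1, Ednrb, Ednra and Edn1 followed each other in the same order in both. In Trim28 KO the order was Edn2 (14.4 ± 2.8 CPM per kilobase, SD, n = 2), Ece1 (8.84 ± 1.25), Ednrb (5.25 ± 0.07), Ednra (2.10 ± 0.48), Edn1 (0.641 ± 0.022), Ece2 (0.249 ± 0.033) and Edn3 (0.105 ± 0.024). Each of these neighbours differed by more than the sum of their SDs. In WT the order was Ece1 (12.7 ± 2.0 CPM per kilobase, SD, n = 2), Ednrb (4.43 ± 0.89), Ednra (3.03 ± 0.19), Edn2, Edn1, Edn3 (0.283 ± 0.001) and Ece2 (0.239 ± 0.044). There, Edn2 and Edn1, and likewise Edn3 and Ece2, differed by less than the sum of their SDs. Edn2 thus stood at rank 1 in Trim28 KO and at rank 4 in WT, which restates the difference by which the set was chosen. The place of Ece2 rests on its understated level.

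The 5 genes whose pattern over the 4 libraries was nearest to that of Edn2 (Euclidean distance of log2 CPM after subtracting each gene's mean, with numbered Gm genes and Rik genes set aside) were Grem1, Slc44a5, Kcnc2, March4 and Gpnmb, at distances of 0.26 to 0.39. Grem1, a secreted BMP antagonist, was at 540.0 and 422 CPM in Trim28 KO and at 29.8 and 33.8 CPM in WT. Gpnmb, a membrane glycoprotein of macrophages, osteoclasts and pigment cells, was at 129 and 125 CPM in Trim28 KO and at 7.12 and 7.83 CPM in WT. Slc44a5 was at 7.67 and 6.82 CPM in Trim28 KO and at 0.53 and 0.35 CPM in WT. The potassium channel gene Kcnc2 was at 6.02 and 3.71 CPM in Trim28 KO and at 0.32 and 0.30 CPM in WT. The ubiquitin ligase gene March4 had 39 and 36 reads in Trim28 KO and 1 and 0 reads in WT. In all 5 genes, both Trim28 KO libraries lay above both WT libraries, which follows from choosing them by likeness to Edn2. Over 4 libraries such a likeness mainly reflects a similar fold difference. Slc44a5, Kcnc2 and March4 passed the filter on low counts, applied before TMM scaling, through the Trim28 KO libraries alone. These genes therefore had to be higher in Trim28 KO if they differed at all. The fitted log2 fold changes were 3.92 (Grem1), 4.02 (Slc44a5), 3.94 (Kcnc2) and 4.09 (Gpnmb), but 5.89 ± 0.79 (SE) for March4. The distance was taken after adding a prior count of 2 reads, which shrinks the difference of a gene with so few reads.

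On chromosome 4, 2 annotated genes with reads had their own start within 200 kilobases of the start of Edn2, and neither showed its difference. Genes that start farther away were not examined, even where their bodies reach closer to Edn2. Foxo6, a forkhead transcription factor gene 126.1 kilobases downstream, had 55 and 33 reads in Trim28 KO and 41 and 31 in WT (log2 fold change of 0.26 ± 0.39, SE, adjusted p = 0.706 in edgeR's quasi-likelihood test). Its antisense transcript Foxo6os had 12 and 12 reads in Trim28 KO and 27 and 15 in WT (-0.83 ± 0.50, adjusted p = 0.282). Reads were counted without regard to strand, so any reads in exon bases that this pair shares were not counted for either gene. Around all 7 members together, 24 neighbours were tested, of which 2 were higher and 3 lower in Trim28 KO, a share near the 17.4% called among all genes tested. The 2 near Ece1 that fell were Alpl, the alkaline phosphatase of mineralizing cartilage and bone, 65.9 kilobases upstream (-1.75 ± 0.28, SE, adjusted p = 8.02e-04), and Rap1gap, 197.5 kilobases upstream (-1.03 ± 0.19, adjusted p = 5.11e-04). Near Ece2, Fam131a (0.98 ± 0.20) and Camk2n2 (0.90 ± 0.27) rose and the chloride channel gene Clcn2 fell (-0.82 ± 0.21), with adjusted p-values of 0.00117, 0.0239 and 0.00722 in that order. Camk2n2 lost its call without Trim28 KO 1, without WT 2 and in DESeq2, and Clcn2 without Trim28 KO 1.

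Of 11 listed proteases that make or break down endothelins or belong to the same enzyme families, 9 were tested. Of these, 1 rose and 2 fell, where 8.64% of all genes tested rose and 8.77% fell. The median log2 fold change was 0.08, where that of all genes tested was -0.02. Mme, which encodes neprilysin, a membrane protease that degrades endothelins and other peptides, was at 3.24 and 3.76 CPM in Trim28 KO and at 18.8 and 18.2 CPM in WT. Both Trim28 KO libraries were far below both WT libraries (-2.40 ± 0.23, SE, adjusted p = 5.69e-08 in edgeR's quasi-likelihood test). Phex, a bone member of the neprilysin family that is mutated in X-linked hypophosphataemia, fell by 1.02 on the log2 scale (adjusted p = 0.00722), a call lost without Trim28 KO 1. Ecel1, a member of the same family from the nervous system, rose, with 35 reads in Trim28 KO and 2 in WT (ratio of 17.2, 95% counting interval of 4.41 to 147, exact and conditional on the sum, adjusted p = 8.67e-04). It passed the filter on low counts through the Trim28 KO libraries alone, so Ecel1 had to be higher in Trim28 KO if it differed at all. Pcsk6, a furin-type protease, was not called (0.53 ± 0.21, adjusted p = 0.0859), and neither was Furin (-0.14).

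Among 26 genes of signalling downstream of the receptors (among them G proteins, phospholipase C, calcium release channels, protein kinase C, arrestins, RGS proteins and NFAT), 4 rose and 5 fell, and 17 did not pass, with a median log2 fold change of -0.01. The shares over all genes tested were 8.64% higher and 8.77% lower. Rgs4, an inhibitor of Gq and Gi signalling, rose to 34.1 and 26.8 CPM in Trim28 KO, against 7.38 and 7.63 CPM in WT (2.02 ± 0.21, SE, adjusted p = 2.14e-07 in edgeR's quasi-likelihood test). Rgs2, an inhibitor selective for Gq, also rose (1.16 ± 0.19, adjusted p = 1.40e-04). The transcription factor gene Nfatc2, whose protein is activated by calcium, fell to 14.3 and 20.6 CPM in Trim28 KO, against 53.5 and 46.2 CPM in WT (-1.52 ± 0.21, adjusted p = 1.07e-05), and Arrb1, an arrestin that ends receptor signalling, fell by 1.51 on the log2 scale (adjusted p = 1.34e-05). The other 5 called genes, named after their values were seen, were Gna11 (0.65) and Arrb2 (0.74), which rose, and Plcb1 (-0.91), Itpr1 (-1.11) and Nfatc4 (-0.65), which fell. The counts were 2 higher and 2 lower without Trim28 KO 1. Gnaq, which encodes the other widely expressed Gq protein, was not called (-0.40).

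**Figure D4:**
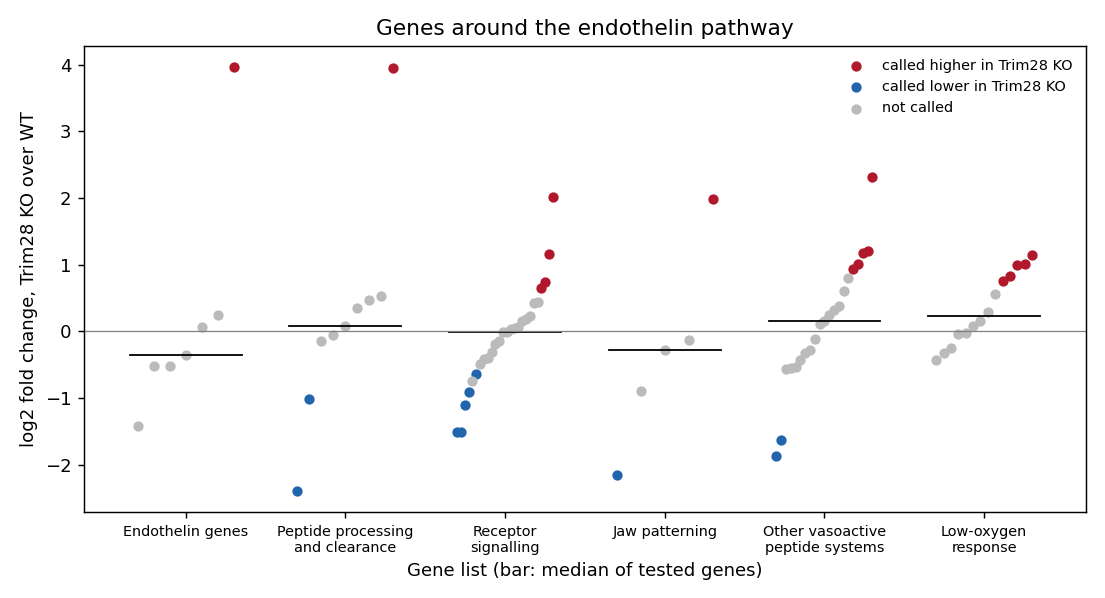
Fitted log2 fold change of Trim28 KO over WT for every tested gene of the endothelin set and of 5 lists around it (red called higher, blue called lower, grey not called, bar at the median). The list medians lie between -0.28 and 0.22, apart from that of the 7 endothelin genes at -0.36.

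Of 7 genes that depend on Edn1 and Ednra in the developing mouse jaw, 5 were tested, of which 1 rose and 1 fell, with a median log2 fold change of -0.28. Among all genes tested, 8.64% rose and 8.77% fell. Barx1, a homeobox gene of jaw and joint mesenchyme, rose (1.98 ± 0.29, SE, adjusted p = 2.65e-05), and Dlx3 fell (-2.15 ± 0.37, adjusted p = 0.00152, both in edgeR's quasi-likelihood test). The Trim28 KO libraries differed in Dlx3, with 23 and 66 reads against 206 and 181 in WT, and its log2 fold change was -3.07 without Trim28 KO 2 and -1.59 without Trim28 KO 1. Dlx5, which also acts in chondrocytes and osteoblasts, was not called (-0.28 ± 0.23, adjusted p = 0.444, and 0.06 without WT 1), nor was Dlx6 (-0.90 ± 0.41, adjusted p = 0.136). Hand1, which was not tested, had 1 and 1 reads in Trim28 KO and 9 and 38 reads in WT.

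Other vasoactive peptide systems were examined alongside. Of 28 listed genes, 21 were tested, of which 5 rose and 2 fell, with a median log2 fold change of 0.16. Among all genes tested, 8.64% rose and 8.77% fell. In the renin-angiotensin system, Agt, which encodes angiotensinogen, rose to 36.5 and 41.7 CPM in Trim28 KO, against 19.0 and 22.1 CPM in WT (0.93 ± 0.19, SE, adjusted p = 0.00127 in edgeR's quasi-likelihood test). Ren1, which encodes renin, rose by 1.17 ± 0.25 (adjusted p = 0.00169). The angiotensin receptor gene Agtr2, abundant in fetal mesenchyme, fell to 41.9 and 39.1 CPM in Trim28 KO, against 143 and 154 CPM in WT (-1.87 ± 0.20, adjusted p = 2.72e-07). Ramp1, which makes the calcitonin receptor-like receptor respond to CGRP, rose most in this list, to 79.5 and 55.1 CPM in Trim28 KO, against 11.3 and 15.7 CPM in WT (2.32 ± 0.22, adjusted p = 2.44e-07). The remaining calls, named after their values were seen, were the rises of Ramp3 (1.20) and the adrenomedullin relative Adm2 (1.01) and the fall of Nppc (-1.63), the C-type natriuretic peptide that promotes growth of cartilage. The number that fell was 1 without Trim28 KO 1, without WT 1 or in DESeq2, and 5 without WT 2.

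Low oxygen is a known inducer of Edn1 and Edn2 in other tissues. Of 14 listed genes of the low-oxygen response, 5 rose and none fell, and 9 did not pass, with a median log2 fold change of 0.22. For comparison, 8.64% of all genes tested rose and 8.77% fell. Egln3, an oxygen-sensing prolyl hydroxylase, rose by 1.01 ± 0.19 (SE, adjusted p = 5.83e-04 in edgeR's quasi-likelihood test), the glucose transporter gene Slc2a1 by 0.996 ± 0.206 (adjusted p = 0.00133), the stress gene Ddit4 by 1.14 ± 0.22 (adjusted p = 7.37e-04) and the carbonic anhydrase gene Car9 by 0.83 ± 0.20 (adjusted p = 0.00500, a call lost without Trim28 KO 1). The remaining call, named after its value was seen, was the rise of Egln1 (0.75 ± 0.21, adjusted p = 0.0156 in the same test). Vegfa, a widely used readout of the low-oxygen response, was not called (-0.43), nor was Edn1 itself. The part of low oxygen in the Edn2 level was not tested.

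The libraries were checked with markers of the tissue and of cells known to make or answer endothelins. Trim28 was at 51.1 and 54.5 CPM in Trim28 KO and at 225 and 186 CPM in WT (-1.96 ± 0.20, SE, adjusted p = 2.28e-07), in the direction that the labels give. Total counts ran from 18616896 to 20082123 per library. The 6 chondrocyte markers summed to 72438 and 91165 CPM in Trim28 KO and 96995 and 70681 CPM in WT, and none of them was called. Of all genes tested, 17.4% were called. Markers of endothelial cells, the main source of Edn1, summed to 450 and 518 CPM in Trim28 KO and 578 and 494 CPM in WT, with none of 8 called. Epithelial markers, of cells known to make Edn2, summed to 9.63 and 9.94 CPM in Trim28 KO and 16.0 and 13.1 CPM in WT, with 1 of 4 tested lower and none higher.

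Macrophage markers rose in 4 of 6 genes, where 8.64% of all genes tested rose. They summed to 298 and 187 CPM in Trim28 KO against 94.0 and 96.1 CPM in WT. Osteoblast markers fell in 4 of 5 genes, where 8.77% of all genes tested fell. They summed to 8407 and 12125 CPM in Trim28 KO against 38058 and 21869 CPM in WT. Col1a1 made up most of these sums, at 8258 and 11921 CPM in Trim28 KO and 37380 and 21087 CPM in WT. Bglap, the osteoblast marker that was not called, went the other way (log2 fold change of 1.19 ± 0.45, SE). It had 33 and 46 reads in Trim28 KO and 10 and 24 reads in WT. Markers of smooth muscle and pericytes, cells that carry Ednra, fell in 3 of 7 tested genes and rose in 1, with sums of 695 and 933 CPM in Trim28 KO and 732 and 640 CPM in WT. The 1 that rose, Cspg4, made up most of these sums, at 500.2 and 718 CPM in Trim28 KO and 422 and 348 CPM in WT. Schwann cell markers fell in 2 of 6 genes and rose in 1, S100b, which chondrocytes also express. Their sums were 383 and 301 CPM in Trim28 KO and 220 and 211 CPM in WT, and S100b alone was at 370 and 292 CPM in Trim28 KO and at 200.4 and 182 CPM in WT. Melanocyte markers summed to 3.30 and 4.22 CPM in Trim28 KO and 5.26 and 4.39 CPM in WT, with Tyrp1 at 0 in all 4 libraries and none of the 2 tested called. Skeletal muscle markers rose in 1 and fell in 1 of 6 genes, with sums of 732 and 335 CPM in Trim28 KO and 541 and 657 CPM in WT. The part of these cells in the endothelin levels was not tested. In RNA pooled over many cells, fewer cells of a type and less RNA per cell cannot be told apart.

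**Figure D5:**
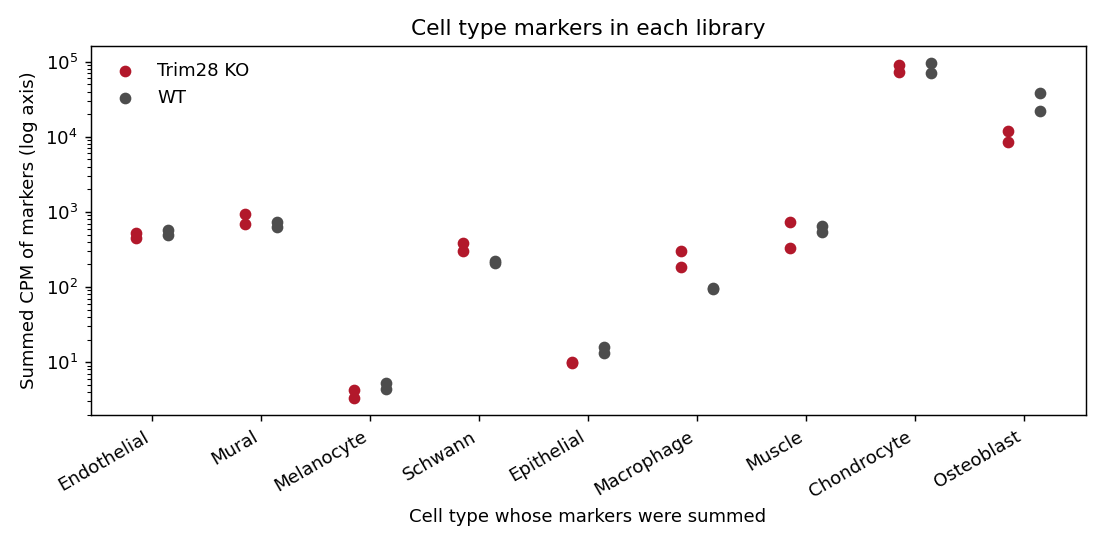
Summed CPM of the markers of 9 cell types in each library (log axis, points are libraries). Macrophage markers lie at 298 and 187 CPM in Trim28 KO and 94.0 and 96.1 CPM in WT, and osteoblast markers at 8407 and 12125 CPM in Trim28 KO and 38058 and 21869 CPM in WT.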

How the data were processed

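The authors deposited raw counts of fragments per gene name, and per the file headers these came from featureCounts 1.6.4 with GENCODE release M23 on mm10, without options for strand, multi-mapping or overlapping reads. An aligner is not given in the sources used here. The same table, per the file headers, gives each gene's exon length, used for the CPM per kilobase. The table held 55228 genes, of which 16639 passed edgeR's filterByExpr. The genotypes were compared in edgeR (quasi-likelihood test, TMM factors, robust dispersions, no covariate; edgeR 4.0.16, limma 3.58.1, R 4.3.3), with Benjamini-Hochberg adjustment over all genes tested. The SE is the log2 fold change divided by the square root of F. "Rose", "fell", "higher" and "lower" refer to adjusted p-values under 0.05. Intervals and the floor of 3 counts cover counting error only. Positions came from GENCODE M21 and promoters from RefSeq (GRCm38.p6), the assembly of mm10.

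Members and lists were chosen with earlier results of these data known. The genes named are the 7 members, Trim28, up to 4 genes of smallest p per pathway list and the 5 nearest to Edn2. Neighbours were genes whose start lies within 200 kilobases of the start of a member. Of the neighbours, those of Edn2 and those called are named, which was decided after their values were seen. So was naming Furin, Gnaq, Egln1, Vegfa, Hand1, S100b, Cspg4, Col1a1, Bglap and Tyrp1. The steps were tested on simulated counts. Alternatives were RLE factors, library size alone, no filter, DESeq2 1.42.0, a stricter filter (5 CPM in 2 libraries), a replicate block and leaving out each library.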

Additional observations from a re-analysis of the deposited data

How the results depend on the processing

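The stricter filter removed Edn1, Edn3 and Ece2 and gave no value for them. Under the alternatives that gave a value, Edn1, Edn2, Ednra, Ednrb and Ece1 kept the sign of their log2 fold change. Edn3 did too, but under the main filter its direction was fixed by that filter. With no filter, the log2 fold change of Edn3 was -1.39 ± 0.55 (SE). The log2 fold change of Ece2 ran from -0.0916 to 0.28 with 1 library left out, below 0 without Trim28 KO 1 and without WT 2. The number of members called lower was 0, but 1 (Ece1) with the stricter filter and from 0 to 1 with 1 library left out. Leaving out 1 library gave 702 to 1442 genes higher and 572 to 1406 lower, against 1438 and 1460 with all. In the protease list, 1 to 2 genes fell with 1 library left out, and 0 rose with the stricter filter, which removed Ecel1. In the signalling list, 2 to 4 rose and 2 to 6 fell with 1 library left out. In the jaw list, 2 fell with no filter and 1 to 2 with 1 library left out, and Dlx5 ran from -0.54 to 0.0564, above 0 without WT 1. In the vasoactive list, 1 fell in DESeq2 and 1 to 5 with 1 library left out. The cause was not tested. Same-numbered libraries deviated from their genotype means with a correlation of -0.05 over 11614 genes, so the numbers were not taken as pairs. The replicate block called 1477 genes higher and 1444 lower, gave Edn2 a log2 fold change of 3.95 and changed no call of an endothelin gene. Depth limits Edn1, Edn3 and Ece2, each with under 40 reads per library, and also the WT level of Edn2 (27 and 25 reads). With 2 libraries per genotype, fitted differences of 1.44-fold (Ednra) and 1.43-fold (Ece1) did not pass the test.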
